A study of Mus musculus with 3 samples.

Results

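Bone morphogenetic protein (BMP) signalling was examined through 10 genes in ST2 cells, a mouse bone marrow stromal cell line. The genes were 3 ligands (Bmp2, Bmp4 and Bmp6), 2 receptors (Bmpr1a and Bmpr2), the secreted antagonist Grem1, the intracellular inhibitor Smad6 and 3 ID genes (Id1, Id2 and Id3). They were taken by gene name from a table of 51826 rows, and each name was found on 1 row with a value in all 3 libraries.

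BMP ligands are secreted dimers that bring type I and type II serine/threonine kinase receptors together. The type II receptor phosphorylates the type I receptor, which phosphorylates SMAD1, SMAD5 and SMAD9. These proteins then enter the nucleus with SMAD4 and bind DNA. The ID genes and the inhibitory SMADs are well-known early targets. ID proteins bind basic helix-loop-helix partners and keep them from DNA, and SMAD6 dampens the pathway from inside the cell. In the bone marrow stroma, BMP ligands are best known for driving osteoblast formation, and gremlin 1 binds BMP2, BMP4 and BMP7 outside the cell and blocks them.

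The study asked which pathways lie downstream of NELL2, a secreted glycoprotein, and of fibronectin 1 (Fn1), the matrix protein it binds. Control ST2 cells received empty vector with control siRNA, NELL2 overexpression cells received the NELL2 construct with control siRNA, and Fn1 knockdown cells received empty vector with siRNA against Fn1. Transfection was transient, with siRNA at 30 nM and lipofectamine in every group. Which Fn1 siRNA was used and the time of harvest were not given in the sources used here. There was 1 library of polyadenylated RNA per group, so every difference below is between 2 single libraries and has no replicate check.

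Levels are FPKM, fragments scaled for transcript length and for the total mapped in the library, which allows genes to be compared within a library. Wherever 3 values follow each other for a gene or sum, the first is from control cells, the second from NELL2 overexpression and the third from Fn1 knockdown. The estimated depth was 23000000, 23700000 and 24200000 fragments. Nell2 was at 0.640, 326 and 1.06 FPKM and Fn1 at 2802, 2489 and 137 FPKM, so both targeted genes moved as labelled. All 10 stromal markers examined reached 1 FPKM, with a summed level of 2667 to 3117 FPKM. Of 7 haematopoietic markers 2 were at 0 in every library and 2 reached 1 FPKM, with sums of 5.61, 5.83 and 2.94 FPKM. Of the 4 endothelial markers 1 reached 1 FPKM (sums of 1.75 to 1.97 FPKM), and of the 4 epithelial markers none did (sums of 0.0619 to 0.104 FPKM, with 2 at 0 throughout). Of 4 mature osteoblast and 4 adipocyte markers 1 each reached 1 FPKM, with sums of 4.07 to 4.31 and 1.48 to 1.72 FPKM. The part of any such cells in the results below was not tested. A change in the number of cells of a type cannot be told apart from a change in RNA per cell.

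Gremlin 1 was by far the most abundant of the 10 transcripts. Grem1 (GRCm38 chromosome 2, 113746164 to 113758646, minus strand) stood at 115, 142 and 116 FPKM. In the control it stood above 95.9% of the genes that reached 1 FPKM. Per unit length it was 11.9, 13.9 and 8.96 times as abundant as Bmp2 and Bmp4, which it binds, combined. With Bmp7, a further ligand it can bind, added to them, these ratios of levels were 5.40, 6.41 and 4.45, so the antagonist exceeded these ligands at the RNA level in all 3 libraries.

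Among the ligands, Bmp4 was the abundant member. Bmp4 (chromosome 14, 46383520 to 46390669, minus strand) was at 8.60, 9.18 and 11.4 FPKM, near the middle of expressed genes. Bmp2 (chromosome 2, 133552159 to 133562885, plus strand), a strong inducer of osteoblast formation, was at 1.01, 1.06 and 1.58 FPKM. Bmp6 (chromosome 13, 38345107 to 38500302, plus strand), an osteogenic ligand also known for its part in iron regulation, was at 0.829, 0.985 and 2.09 FPKM. Both were therefore close to the lower end of expressed genes, and Bmp6 reached 1 FPKM in the Fn1 knockdown library only. All 3 ligands were lowest in the control and highest after Fn1 knockdown.

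The receptors were moderately expressed and nearly level. Bmpr1a (chromosome 14, 34410734 to 34503341, minus strand), a type I receptor for BMP2 and BMP4, stood at 24.2, 23.8 and 26.9 FPKM. Bmpr2 (chromosome 1, 59763400 to 59879014, plus strand), the type II receptor particular to BMP ligands, was at 9.003, 8.75 and 8.59 FPKM. The type I receptor was thus 2.69, 2.72 and 3.14 times as abundant as the type II receptor per unit length in the 3 libraries.

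The target genes were well expressed, with Id3 leading. Id3 (chromosome 4, 136143497 to 136145755, plus strand) was at 47.1, 48.8 and 63.1 FPKM. Id1 (chromosome 2, 152736251 to 152737410, plus strand) was at 27.7, 26.9 and 31.5 FPKM, and Id2 (chromosome 12, 25093799 to 25097140, minus strand) at 27.3, 24.2 and 27.9 FPKM. Id3 made up 46.1%, 48.9% and 51.5% of the summed FPKM of the 3 genes, and Id2 26.8%, 24.2% and 22.8%. Smad6 (chromosome 9, 63953076 to 64022059, minus strand), which is both a target and an inhibitor, was at 8.13, 7.71 and 9.75 FPKM. The highest value of all 4 target genes was in the Fn1 knockdown library, and for Id1, Id2 and Smad6 the lowest was in the NELL2 overexpression library.

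**Figure D1:**
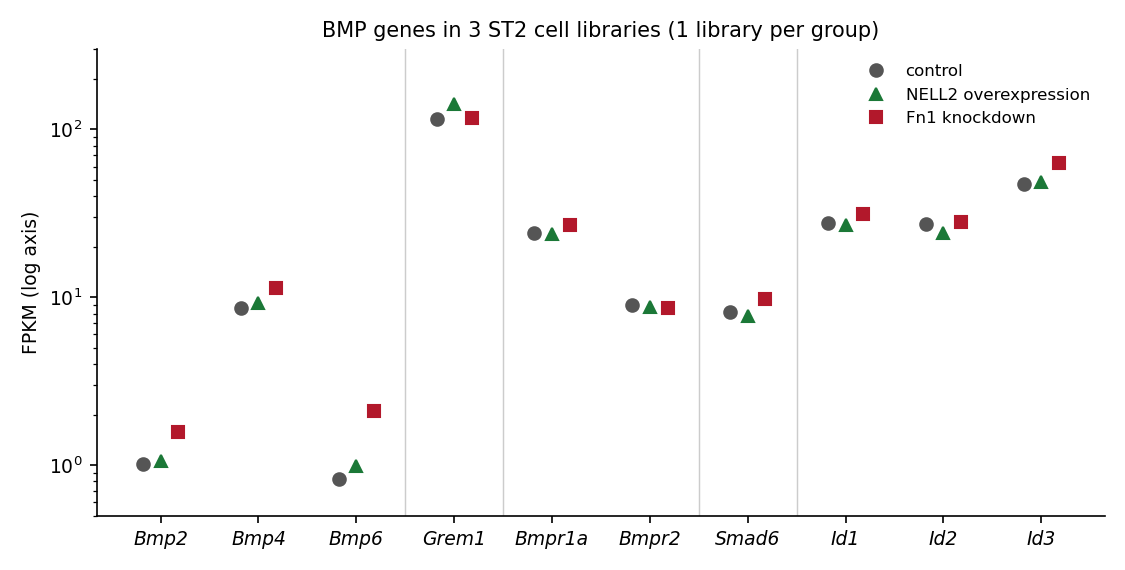
Level of each of the 10 BMP genes in the 3 ST2 cell libraries, as FPKM on a log axis, with 1 point per library and vertical lines between ligands, antagonist, receptors, inhibitory SMAD and ID genes. Grem1 is highest at 115 to 142 FPKM, and Bmp2 and Bmp6 are lowest at 0.829 to 2.09 FPKM.

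In each library the order began with Grem1, Id3 and Id1 and ended with Bmp2 and Bmp6, the last pair being in reverse order after Fn1 knockdown. Id2 and Bmpr1a stood next to each other in all 3 libraries. The values of Bmpr2, Bmp4 and Smad6 lay between 7.71 and 11.4 FPKM and their order differed among the libraries. How far cultures of one group vary was not measured, and none of these neighbours can be said to differ.

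The promoter stretches of 3 members are shown because they hold the leading antagonist, the leading ligand of the 3 and the SMAD inhibitor, and because DNA letters bound by SMAD proteins can be read in them directly. Windows were found in the RefSeq table (GRCm38.p6) for 8 of the 10 genes, and in those of Grem1, Bmp4 and Smad6 the 250 upstream bases hold no annotated GENCODE exon. Each runs from 250 bases before the gene start to base 30 of the transcript, 5′ to 3′ on the strand of the gene. Capitals mark GTCT, the SMAD box, or its complement AGAC, and the GC-rich element GGCGCC, which can overlap neither of them.
Grem1 (chr2:113758619-113758898, minus strand): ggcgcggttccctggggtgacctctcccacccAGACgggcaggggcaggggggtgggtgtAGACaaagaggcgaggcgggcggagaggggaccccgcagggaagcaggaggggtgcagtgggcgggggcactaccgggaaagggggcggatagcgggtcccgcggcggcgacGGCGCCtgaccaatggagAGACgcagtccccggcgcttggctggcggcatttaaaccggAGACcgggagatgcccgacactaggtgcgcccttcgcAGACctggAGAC
Bmp4 (chr14:46390640-46390919, minus strand): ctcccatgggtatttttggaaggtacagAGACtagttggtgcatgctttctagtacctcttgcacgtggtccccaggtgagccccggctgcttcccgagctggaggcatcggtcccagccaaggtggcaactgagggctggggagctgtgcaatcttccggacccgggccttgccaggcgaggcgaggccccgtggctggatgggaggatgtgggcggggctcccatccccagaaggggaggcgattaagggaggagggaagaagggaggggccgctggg
Smad6 (chr9:64022030-64022309, minus strand): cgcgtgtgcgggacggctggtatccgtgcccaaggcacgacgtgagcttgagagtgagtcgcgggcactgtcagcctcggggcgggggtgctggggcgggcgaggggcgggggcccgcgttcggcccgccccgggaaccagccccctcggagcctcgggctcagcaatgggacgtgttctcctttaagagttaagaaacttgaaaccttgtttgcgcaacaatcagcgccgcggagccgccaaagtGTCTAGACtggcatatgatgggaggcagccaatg

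Counted from the gene start, Grem1 held GGCGCC at position -78 and 6 SMAD boxes on either strand, at -218, -190, -60, -19, 19 and 27. In Bmp4 a box began at -222, and a further one at 36 lies past the stretch shown. In Smad6 the boxes at -4 and 1 adjoin and form GTCTAGAC, the palindromic SMAD-binding element, across the gene start. Over 32851 RefSeq windows of the same length, 11.9% held GGCGCC and 88.0% held GTCT on either strand, so a SMAD box alone says little. GTCTAGAC, which was looked for after it had been seen in Smad6, was in 0.213% of the windows. Of the other windows, those of Bmpr2, Id2 and Bmpr1a held GGCGCC, and those of Id3 and Bmp6 held no GGCGCC. Such matches are a description of letters, and binding was not measured.

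Fn1 knockdown was then compared with the control. The 3 ligands and Id3 stood higher after knockdown, at 2.52 times the control level for Bmp6, 1.56 for Bmp2, 1.32 for Bmp4 and 1.34 for Id3. The other members lay between 0.954 times the control (Bmpr2) and 1.20 times (Smad6), with Id2 and Grem1 nearest to it. No member differed by 2-fold on the log2(FPKM + 1) scale, against 1.23% of the 12574 genes that reached 1 FPKM in at least 1 of the libraries compared. At 1.5-fold, Bmp6 was the only member, against 6.24% of those genes, and it passed the filter of 1 FPKM only through the knockdown library, in which it was high. Without Bmp6, 8 of the other 9 members were above the control, against 49.7% of all genes with a mean of 1 FPKM or more, and their median log2 ratio was 0.18, against -0.0028 over all genes tested. With Bmp6 the median was 0.21.

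Intervals were set on each ratio of FPKM from estimated fragment numbers. These cover counting error alone and compare libraries, not conditions. The 95% interval lay above 1 for 7 of the 10 members and below 1 for none. Bmp6, which passed the filter only through the knockdown library, was among the 7. The others were Bmp2, Bmp4, Bmpr1a, Smad6, Id1 and Id3. Of the 12263 genes with a transcript length, 23.6% had an interval above 1 and 23.7% below. At this depth, counting error is thus small beside the differences between libraries for many genes, and the spread between cultures is not known.

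Bmp6 and Bmp2 rested on few fragments. Bmp6 had about 40 fragments in the control and about 106 after knockdown, with an FPKM ratio of 2.52 and an interval of 1.73 to 3.72. Its log2 ratio of 0.76 on the log2(FPKM + 1) scale was reached or passed in size by 3.02% of genes tested. Among genes whose higher level was from 1 to 5 FPKM, as for Bmp6, 6.86% passed 1.5-fold in this comparison. Of the exonic bases of Bmp6, 224 (5.74%) are also exonic in Txndc5 on the opposite strand, and the strand setting of the counting was not stated. Txndc5, named because of this overlap, was at 88.1, 88.6 and 96.2 FPKM, which is 1.09 times the control after knockdown.

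Bmp2 had about 83 and 136 fragments in the control and knockdown libraries, giving an FPKM ratio of 1.56 with an interval of 1.18 to 2.07. Bmp4, with about 365 and 509 fragments, gave a ratio of 1.32 with an interval of 1.16 to 1.52. Their log2 ratios of 0.36 and 0.37 were nearly alike, and 18.5% and 17.7% of all genes differed by as much or more. Bmp4 shares 89 exonic bases with Gm15217 on the opposite strand, which was listed at 0 in all 3 libraries.

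Of the ID genes, Id3 had the highest ratio. Id3 was 16.0 FPKM above the control after Fn1 knockdown, a ratio of 1.34 with an interval of 1.25 to 1.44, and its log2 ratio of 0.41 was reached in size by 14.0% of genes. Id1 had a ratio of 1.14 (1.02 to 1.26) and Id2 a ratio of 1.02 (0.924 to 1.12), so for Id2 no difference was detectable at this depth. Id3 was 1.70 times as abundant as Id1 in the control and 2.01 times as abundant after knockdown. Summed over the 3 genes, the level went from 102 to 122 FPKM, or 120% of the control, and most of the 20.3 FPKM difference was in Id3.

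Smad6 had a ratio of 1.20 with an interval of 1.03 to 1.40 after knockdown and a log2 ratio of 0.24, and with the median length of all its transcripts the interval held 1 (0.877 to 1.63). For Bmpr1a the ratio was 1.11 (1.01 to 1.23), while Bmpr2, with about 2667 and 2679 fragments, had a ratio of 0.954 (0.904 to 1.01) and was the only member below the control. Grem1 had a ratio of 1.01 (0.987 to 1.04), the narrowest of these intervals, and 93.7% of all genes differed by as much or more. The antagonist and the type II receptor were therefore close to the control level in the knockdown library.

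**Figure D2:**
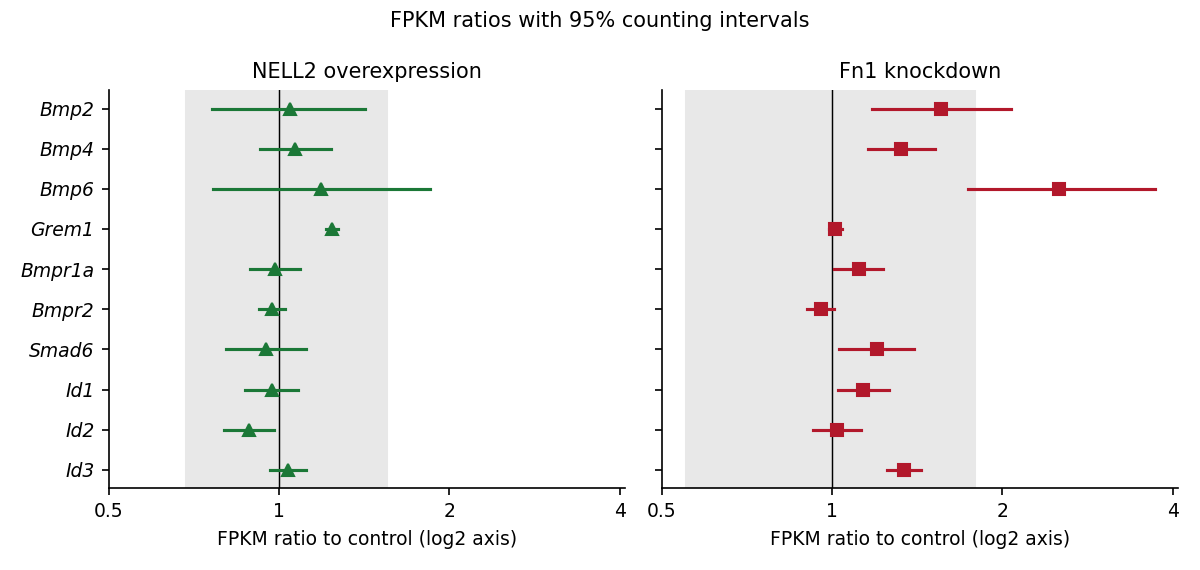
FPKM ratio to the control for each member on a log2 axis, with NELL2 overexpression on the left and Fn1 knockdown on the right. Points are single libraries, bars are 95% intervals for counting error alone and the grey band holds the central 95% of the ratios of all genes tested, 0.686 to 1.55 on the left and 0.551 to 1.79 on the right. Bmp6 after Fn1 knockdown, at 2.52, is the only point outside its band. It rests on about 40 fragments in the control, and the band covers genes of all levels, with none made for genes as low.

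NELL2 overexpression left the members close to the control, apart from a higher Grem1 and a slightly lower Id2. Grem1 was 27.6 FPKM higher, a ratio of 1.24 with an interval of 1.21 to 1.27 on about 10919 and 13992 fragments. On the log2 scale this was 0.31, and 10.4% of all genes differed by as much or more. Id2 had a ratio of 0.885 (0.799 to 0.979) and a log2 ratio of -0.17, reached in size by 26.4% of genes. These were the only members whose counting interval did not include 1, which is 1 above and 1 below, against 14.6% of 12264 genes above and 12.5% below.

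No member passed 2-fold (0.652% of the 12572 genes tested did) or 1.5-fold (2.59%) with NELL2 overexpression. Of the 10 members 5 were above and 5 below the control, against 52.3% of all genes above it. Bmp6, under 1 FPKM in both libraries, did not pass the filter for calls. The median log2 ratio over the other 9 members was -0.023, against 0.0072 over all genes tested, and with Bmp6 included it was 0.0046. For Bmp6 the ratio of 1.19 had a wide interval of 0.765 to 1.85 on about 40 and 49 fragments.

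The remaining members differed little. The ratios were 1.04 for Bmp2 (0.761 to 1.42) and 1.07 for Bmp4 (0.925 to 1.23) among the ligands, and 0.984 for Bmpr1a (0.888 to 1.09) and 0.972 for Bmpr2 (0.921 to 1.03) among the receptors. Smad6 had a ratio of 0.948 (0.806 to 1.12), Id1 of 0.970 (0.869 to 1.08) and Id3 of 1.04 (0.962 to 1.12). The summed level of Id1, Id2 and Id3 was 99.8 FPKM, or 97.7% of the control. For Bmp2 and Bmp6 the intervals reach up to 1.42 and 1.85 times the control, so low counts limit what can be said of these ligands.

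**Figure D3:**
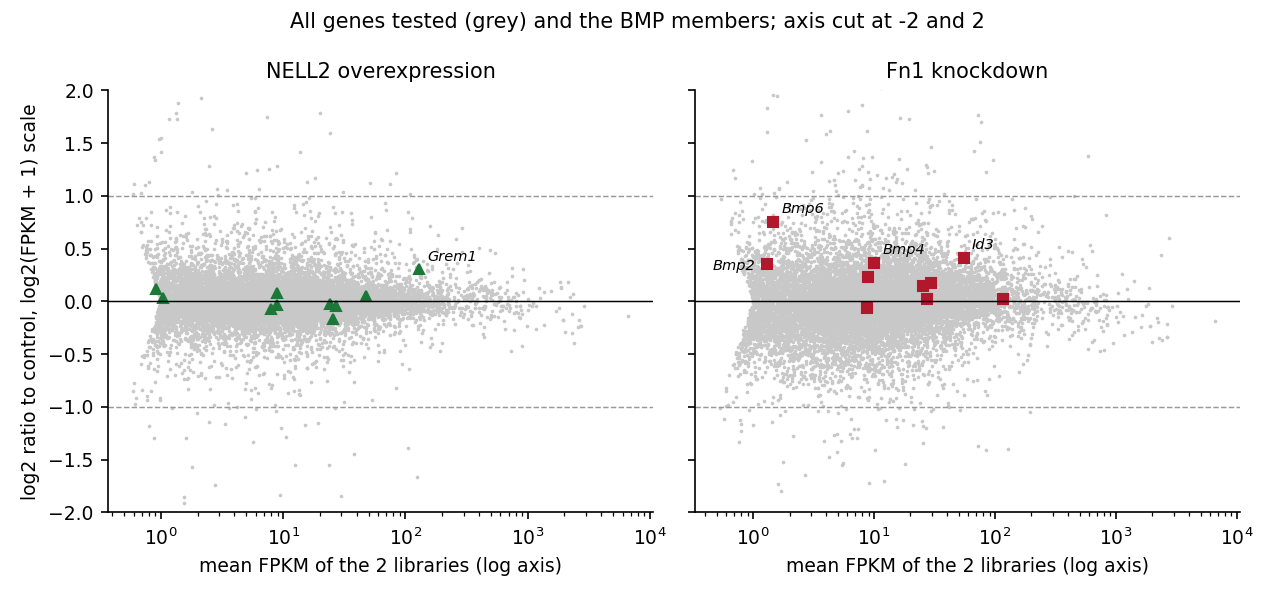
Log2 ratio to the control on the log2(FPKM + 1) scale against the mean FPKM of the 2 libraries compared (log axis), for all genes tested (grey) and the 10 members (coloured, those at 0.3 or more named). Dashed lines mark 2-fold, and 16 genes on the left and 22 on the right lie beyond the axis. After Fn1 knockdown Bmp6, at 0.76, lies nearest the upper line, and with NELL2 overexpression Grem1, at 0.31, is the member farthest from 0.

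The control library is shared by both comparisons, and a low or high value in it moves both. Direct differences between the treated libraries were not tested.

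The wider pathway was described with a list of 73 genes by role, which includes the 10 members. All were found in the table, 4 were at 0 in all 3 libraries, and 56 had a mean of 1 FPKM or more. Without the members, 27 of 46 were above the control after Fn1 knockdown (58.7%, against 49.7% of all genes), with a median log2 ratio of 0.056. With NELL2 overexpression 23 of the 46 were above it (against 52.3% of all genes), with a median of 0.00029. On the log2(FPKM + 1) scale no listed gene passed 2-fold in either comparison. Of all genes tested, 1.23% did so after Fn1 knockdown and 0.652% with NELL2 overexpression. At 1.5-fold on this scale 3 of the 58 listed genes tested did so after Fn1 knockdown, near the 6.24% of all genes. These were Bmp6, Bmper and Acvrl1. With NELL2 overexpression none of 55 did, against 2.59%. By FPKM ratio after knockdown, Bmp6 passed 2-fold, at 2.52, and others such as Bmp2 passed 1.5-fold, at 1.56.

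Among the ligands, 6 had a mean of 1 FPKM or more, but Bmp6 did so only through the library in which it was high. The other 5 were above the shared control in both comparisons, with median log2 ratios of 0.36 after Fn1 knockdown and 0.035 with NELL2 overexpression, against 49.7% and 52.3% of all genes above it. Their counting intervals lay above 1 for 4 of the 5 after Fn1 knockdown and held 1 for all 5 with NELL2 overexpression, where 23.6% and 14.6% of all genes had intervals above 1. Over all 14 ligands in the table, 11 were above the control after knockdown, 1 was below and 2 were listed at 0 throughout, and with NELL2 overexpression the numbers were 10, 2 and 2. Bmp7, a ligand that shares receptors with BMP6, was the most abundant at 11.6, 11.9 and 13.2 FPKM. The ligand sum was 27.3, 28.8 and 36.2 FPKM, of which Bmp4 held 31.5%, 31.9% and 31.5% and Bmp7 42.5%, 41.4% and 36.4%. Gdf6, a ligand of the same family named after its values were seen, was at 1.19, 1.23 and 2.15 FPKM, an FPKM ratio of 1.81 (1.41 to 2.34) after knockdown.

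Antagonists were many and abundant. Their sum over 16 genes was 388, 421 and 445 FPKM, and Grem1 was the largest part with 29.6%, 33.7% and 26.1%. Bmper, a secreted BMP-binding protein, was at 17.4, 19.7 and 28.3 FPKM, with a log2 ratio of 0.67 and an FPKM ratio of 1.63 (1.497 to 1.77) after Fn1 knockdown. Of the 11 antagonists with a mean of 1 FPKM or more, 8 were above the control after knockdown and 5 with NELL2 overexpression. Their medians were 0.065 and -0.015. Over all genes, 49.7% and 52.3% were above the control in these comparisons.

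The receptors did not move together. Acvrl1, the type I receptor also known as ALK1, was at 11.1, 13.5 and 6.68 FPKM, with a log2 ratio of -0.65 and an FPKM ratio of 0.605 (0.521 to 0.700) after Fn1 knockdown and a ratio of 1.22 (1.08 to 1.38) with NELL2 overexpression. Bmpr1b, a type I receptor named after its values were seen, was at 3.72, 4.09 and 5.75 FPKM, a ratio of 1.55 (1.33 to 1.81) after knockdown. Among 4 type I receptors 2 were thus above and 2 below the control after knockdown (median log2 ratio 0.051). With NELL2 overexpression 3 were above and 1 below (median 0.19). The share of all genes above the control was 49.7% and 52.3%. Bmpr1a was the most abundant of the 4. Eng, the most abundant co-receptor, was level at 55.3, 56.5 and 56.3 FPKM.

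Within the cell, Smad4, the shared partner of the signalling SMADs, was the most abundant of these at 22.6, 22.2 and 21.8 FPKM. Of the 4 signalling SMADs 1 was above the control and 3 below in each comparison, with medians of -0.063 after Fn1 knockdown and -0.051 with NELL2 overexpression. Among the 7 intracellular inhibitors, to which Smad6 belongs, 5 were above the control after knockdown (median 0.20) and 2 with NELL2 overexpression (median -0.068). For both roles, the share of all genes above the control was 49.7% after knockdown and 52.3% with NELL2 overexpression. Ski, a repressor that binds SMADs, led at 59.5, 59.3 and 68.5 FPKM. Smurf1, a ubiquitin ligase that acts on BMP SMADs and was named after its values were seen, was lower in both, at 25.9, 17.6 and 17.9 FPKM.

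The ID genes of the list were the 3 members and Id4, which was named after its values were seen and was at 3.81, 3.52 and 3.69 FPKM. Of the other BMP targets, 3 of 8 were above the control in each comparison, against 49.7% and 52.3% of all genes. Their medians were -0.030 after Fn1 knockdown and -0.053 with NELL2 overexpression. Msx2, a homeobox gene of the osteoblast lineage, was the most abundant at 83.6, 76.9 and 76.2 FPKM. Atoh8, named after its values were seen, was at 6.65, 6.97 and 10.1 FPKM, a ratio of 1.51 (1.32 to 1.73) after knockdown. After Fn1 knockdown some listed targets were thus above the control, as Id3 was, and others below it.

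**Figure D4:**
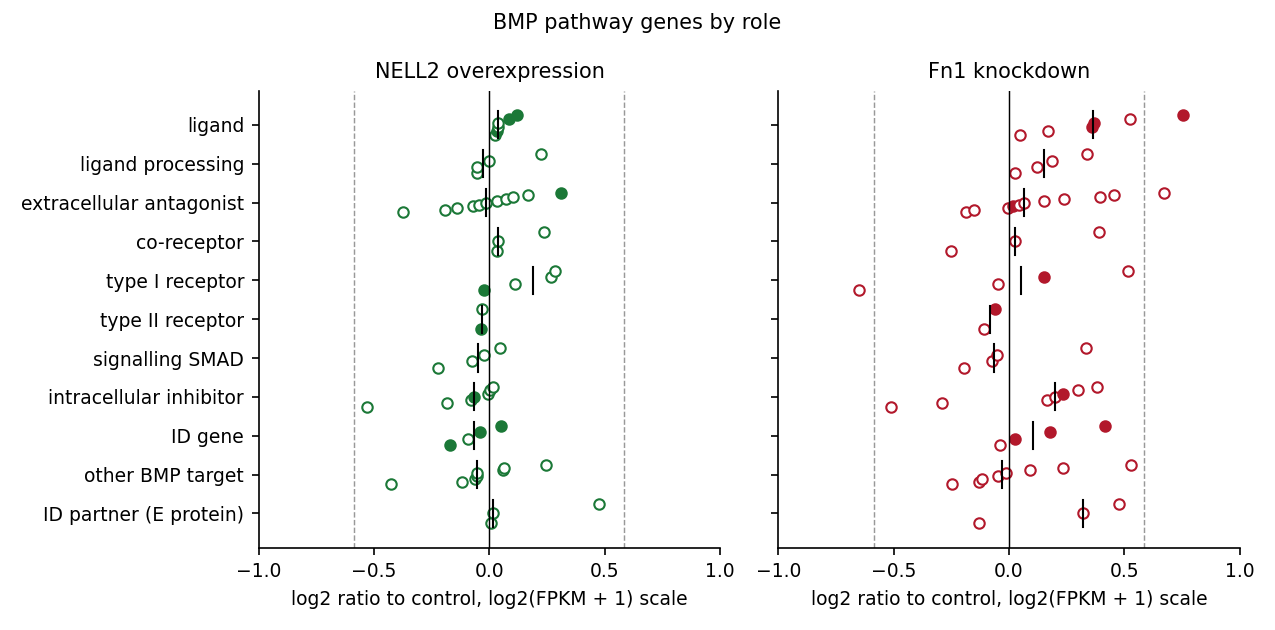
Log2 ratio to the control on the log2(FPKM + 1) scale for the 56 BMP pathway genes with a mean of 1 FPKM or more, by role, for NELL2 overexpression (left) and Fn1 knockdown (right). Filled points are members, black bars are medians and dashed lines mark 1.5-fold. After Fn1 knockdown Bmp6, Bmper and Acvrl1 lie outside the dashed lines.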

How the data were processed

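The authors enriched polyadenylated RNA, sequenced paired ends on an MGISEQ-2000 and mapped reads with HISAT2; GRCm38 and DESeq are named in the submitters' processing notes. The deposited values are FPKM per gene name, already scaled by the authors for transcript length and library total. The tool that made them, its annotation and its strand setting are not given in the sources used here.

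From these, log2(FPKM + 1) was differenced against the control. A gene was tested at 1 FPKM or more in either library and called at 2-fold, or 1.5-fold where stated. Direction was counted over genes with a mean of 1 FPKM or more over the 3 libraries. With 1 library per group no test was run and no p-value is given.

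For depth, FPKM was multiplied by length in genes with 1 transcript of at least 600 bases in GENCODE M21, which also gave the gene coordinates, and the product that recurred most among low values was taken as 1 fragment. Between 22.1% and 23.0% of low values lay within 0.02 of a whole fragment, which is too few to recover whole reads, so fragment numbers are approximate. They used the median over the protein-coding transcripts of each gene as its length, and ratios carry Clopper-Pearson 95% intervals, for counting error only.

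The members and lists were chosen with earlier results of these data known. Genes named were the members, Nell2 and Fn1, and of each role the most abundant gene in the control and any gene past 1.5-fold. Others are said to have been named after their values were seen. The call rule and the depth estimate were checked only on simulated counts. These held large planted changes in well-expressed genes and were drawn with the same transcript lengths. They therefore say nothing of calls near 1 FPKM and cannot show that the depths estimated here are right. The alternatives were other pseudocounts (0.1 and 5), cutoffs, filters, scalings and transcript lengths, and leaving out overlapping genes. Python 3.11.15, pandas 2.3.3 and SciPy 1.17.1 were used.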

Additional observations from a re-analysis of the deposited data

How the results depend on the processing

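The number of members called after Fn1 knockdown depended on the pseudocount, the scaling and the cutoff. None passed 2-fold with a pseudocount of 1 FPKM, but 1 (Bmp6) did with a pseudocount of 0.1 (log2 ratio 1.24, with 2.85% of all genes called) and with values rescaled to TPM (log2 ratio 1.03, with 2.36% called), and 1 with a 1.5-fold cutoff. Bmp6 was at 0.829 FPKM in the control and 2.09 after knockdown, an FPKM ratio of 2.52. Its log2 ratio therefore depends on how large the pseudocount is beside these values. In the wider list, the pseudocount of 0.1, TPM and the 1.5-fold cutoff called 1, 1 and 3 genes. Among main values, 58 of 64 recomputed counts, medians and sums kept their value within 1.5 times or 0.1 on the log2 scale, and 78 of 80 single log2 ratios of members kept their sign and their side of 2-fold, the exceptions being those of Bmp6. No log2 ratio of a single member changed sign. The median of the members with NELL2 overexpression did, from -0.023 over the 9 that passed the filter to 0.0046 with no filter and 0.011 with TPM, both of which take in Bmp6. No member overlaps another gene on the same strand, so leaving out overlapping genes removed no member and could not change their values. The opposite-strand overlaps of Bmp4, Bmp6 and Bmpr1a were kept in this setting. Size factors (0.998 to 1.004) were so near 1 that this scaling tests little. Fragment numbers depended on the transcript length used. With the longest transcript, a choice made after seeing the data, Bmp6 had about 68 and 181 fragments in the control and Fn1 knockdown libraries and an interval of 1.90 to 3.39, and 7 members again had intervals above 1. With the median of all transcripts it had about 13 and 34 and an interval of 1.28 to 5.13. With that length 6 members had intervals above 1, Smad6 no longer being among them. Bmp6 is in both counts. The share of all genes with such intervals was computed with the protein-coding median length only. No paired analysis was possible because there was a single library in every group, which also meant that no library could be left out.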

Other observations

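The basic helix-loop-helix E proteins, which ID proteins bind and keep from DNA, were expressed in the same range as the ID genes. Tcf12 was the most abundant at 44.2, 44.7 and 40.3 FPKM, and Tcf3 was at 22.7, 22.8 and 28.5 FPKM. Tcf4, named with Tcf3 after their values were seen, was at 16.8, 23.8 and 23.8 FPKM, an FPKM ratio of 1.41 to the shared control in each treated library (counting intervals of 1.28 to 1.55 with NELL2 overexpression and 1.28 to 1.56 after Fn1 knockdown). The sum of the 3 E protein genes was 83.7, 91.2 and 92.6 FPKM.

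Furin, a convertase that cleaves BMP precursors, was the most abundant of 4 listed processing enzymes at 51.7, 49.8 and 56.4 FPKM. All 4 were above the control after Fn1 knockdown, with a median log2 ratio of 0.15. With NELL2 overexpression 1 of 4 was above it, with a median of -0.028. Of all genes, 49.7% and 52.3% were above the control in these comparisons. Among the 4, Pcsk6 was level within counting error after knockdown, at a ratio of 1.02 (0.900 to 1.16). None of the E proteins or processing enzymes passed 1.5-fold on the log2(FPKM + 1) scale. Of all genes tested, 6.24% did so after Fn1 knockdown and 2.59% with NELL2 overexpression. With so few genes, none passing says little about these roles.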
